A study of Rattus norvegicus with 10 samples.

Results

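Metallothioneins and the genes that move zinc across membranes were followed in rat liver through 12 probe sets, of 31042 tested, that are annotated to 8 genes: the metallothioneins Mt1, Mt2A and Mt3, the zinc-sensing transcription factor Mtf1, the exporters Slc30a1 and Slc30a10, and the importers Slc39a4 and Slc39a14. A probe set was taken when the platform annotation named one of these genes, and 11 of the 12 are annotated to that gene alone. The other one is shared by Mt1 with Mt1f and with Ttr, which encodes transthyretin, an abundant plasma protein made by hepatocytes. The 8 genes were chosen by name with the differences between dosed and vehicle arrays of this same comparison in view. Their differences, calls and adjusted p-values are therefore a description of the members and support nothing by themselves.

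The samples were livers of female Harlan Sprague-Dawley rats, 5 given corn oil by gavage (vehicle, 0 mg per kg) and 5 given indole-3-carbinol (I3C) in corn oil by gavage at 300 mg per kg. I3C is a compound released from cruciferous vegetables whose acid products bind the aryl hydrocarbon receptor. Both groups were dosed on 5 days per week for 13 weeks per the labels, whereas the series describes itself as a 2-year study. Neither ages nor animal identities are in the labels, and p-values therefore reflect only how much these 10 samples vary. In bulk tissue fewer cells of a type and less RNA per cell cannot be told apart.

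Metallothioneins are small proteins, rich in cysteine, that bind zinc, copper and cadmium and buffer free zinc in the cell. When zinc rises, MTF1 enters the nucleus and binds metal response elements in the promoters of the metallothionein genes and of Slc30a1, whose product (ZnT1) carries zinc out of the cell. In liver, glucocorticoids and interleukin 6 are also known to raise metallothionein transcripts and Slc39a14 (ZIP14), which brings zinc, iron and manganese into hepatocytes. Mt3 is mainly a brain form, Slc39a4 (ZIP4) is best known as the zinc importer of the intestine, and Slc30a10 exports manganese from liver and brain.

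The 250 bases before the start sites of Mt1, Mt2A, Mt3 and Slc30a1 are shown because MTF1 is known to act on Mt1, Mt2A and Slc30a1 through metal response elements there, while Mt3 is known to respond little to zinc. The sequences are from RefSeq on build GRCr8 and matched 5 of the 8 genes (Mtf1 is the fifth). Each is given 5′ to 3′ on the strand of its gene, with capitals on matches to the core of the metal response element, TGCACNC or TGCGCNC, on either strand. Mt1 (chr19:10832976-10833225), Mt2A (chr19:10838709-10838958) and Mt3 (chr19:10856081-10856330) lie on the minus strand of chromosome 19, next to one another in the RefSeq order of protein-coding genes, with Nup93 on the Mt1 side and Mt4, then Bbs2, on the Mt3 side. Slc30a1 (chr13:106021769-106022018) lies on the plus strand of chromosome 13.
Mt1: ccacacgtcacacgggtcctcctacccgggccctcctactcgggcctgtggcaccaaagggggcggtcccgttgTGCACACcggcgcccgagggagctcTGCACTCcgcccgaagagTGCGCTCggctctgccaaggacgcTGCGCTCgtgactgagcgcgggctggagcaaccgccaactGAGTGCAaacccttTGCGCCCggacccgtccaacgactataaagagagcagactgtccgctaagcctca
Mt2A: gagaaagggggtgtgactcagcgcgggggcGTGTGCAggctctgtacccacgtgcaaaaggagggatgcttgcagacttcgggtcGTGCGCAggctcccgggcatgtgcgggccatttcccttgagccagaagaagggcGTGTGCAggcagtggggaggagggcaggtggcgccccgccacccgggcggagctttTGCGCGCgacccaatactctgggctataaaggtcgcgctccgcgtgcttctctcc
Mt3: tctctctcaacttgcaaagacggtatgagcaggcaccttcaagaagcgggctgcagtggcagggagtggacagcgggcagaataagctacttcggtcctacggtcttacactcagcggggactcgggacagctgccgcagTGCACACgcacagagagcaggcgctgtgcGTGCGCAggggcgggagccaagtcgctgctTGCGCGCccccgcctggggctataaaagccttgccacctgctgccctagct
Slc30a1: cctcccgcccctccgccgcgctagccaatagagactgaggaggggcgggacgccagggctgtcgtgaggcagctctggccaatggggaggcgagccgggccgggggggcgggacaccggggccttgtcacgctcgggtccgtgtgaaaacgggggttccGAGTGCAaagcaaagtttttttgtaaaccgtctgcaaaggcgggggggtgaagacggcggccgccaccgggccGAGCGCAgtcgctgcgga

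Matches to the metal response core were densest before Mt1. Its 250 bases hold 6 of them, 3 of each form, and 0.0269% of the 33469 RefSeq rat promoters hold at least as many in the same stretch, whereas 20.6% hold at least 1. Mt2A holds 4 (0.266% of promoters hold at least as many), Mt3 holds 3 (1.17%), and Slc30a1 and Mtf1 hold 2 each (4.90%). None of these cores overlaps another core in the 5 promoters. The nearest core to the start lies between -55 and -49 in both Mt1 and Mt2A, between -51 and -45 in Mt3, and between -18 and -12 in Slc30a1, counting -1 as the base before the start.

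The same stretches were searched on both strands for the cores of other factors. TGACNNNGC, the antioxidant response element core through which NRF2 acts, is present in 10.1% of all promoters, once in Mt1, Mt2A and Slc30a1, and at 2 places in Mtf1. GCGTG, the core bound by the aryl hydrocarbon receptor, is present in 25.9% of promoters. Mt2A holds 3 such cores, of which 2 overlap a metal response core, Mt3 holds 2 that both overlap one, and Slc30a1 and Mtf1 hold 1 each, that of Mtf1 overlapping one. Mt1 has no match to GCGTG in this window. TGTTCT, the core of the glucocorticoid receptor site, is present in 17.5% of promoters and, among the 5, in Mtf1. A match describes letters and is not a binding site shown by these data, and the absence of a match says nothing of the factor.

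**Figure D1:**
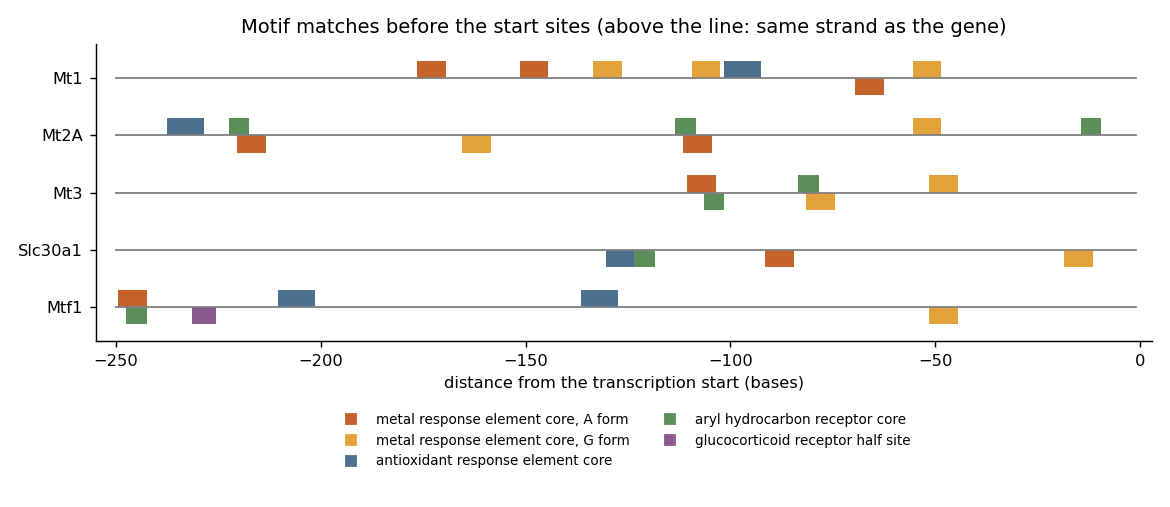
Position of each motif match in the 250 bases before the start of 5 genes, with distance from the transcription start on the x axis, one line per gene, boxes above the line for matches on the strand of the gene and below for the other strand. Mt1 holds 6 metal response cores, Mt2A 4, Mt3 3, and Slc30a1 and Mtf1 2 each.

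Of the 12 probe sets 4 were higher in dosed than in vehicle livers past an adjusted p of 0.05 and 0 were lower. They were the shared Mt1 probe set, Mt2A, Slc30a1 and Slc39a4. Over all 31042 probe sets 4.79% passed in either direction (2.49% higher, 2.30% lower), by limma with Benjamini-Hochberg adjustment. Without the adjustment, 5 of the 12 were higher and 2 lower at p under 0.05. The 4.79% does not apply to that cut. No share of all probe sets or genes at an unadjusted p was taken, here or for later counts. The median difference of the 12 was 0.11 on the log2 scale, against -0.0033 over all probe sets, and 8 of the 12 differences were positive. Differences are given with the SE that limma estimated from 5 arrays per group. Levels are log2 expression values, and tests compare a level between groups for the same probe set. Percentiles and ranks by brightness describe probe sets on the array and say nothing of transcript amounts between genes. Without moderation of the variance 1 of the 12 passed, the shared Mt1 probe set (adjusted p = 0.0329), where 2.89% of all probe sets did.

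The GAPDH measure of RNA quality moved with the dose, and vehicle 5 was highest in it. The difference between the 3′ and 5′ control probe sets of GAPDH, which grows as RNA degrades, ran from 0.32 to 0.65 in vehicle arrays, with vehicle 5 at the top, and from 0.16 to 0.29 in dosed arrays, so that all 5 dosed arrays lay below every vehicle array (exact permutation p = 0.00794, two-sided, the smallest that 5 against 5 can give). That of beta-actin ran from 1.45 to 1.74 and from 1.17 to 1.53 (exact permutation p = 0.0476). Vehicle 5 was the lowest vehicle array there, at 1.45, so the 2 measures rank this array differently. The part of RNA quality in the members' differences was not tested. Values of a fit with either measure as a covariate are given beside the results. Cyp1a1, the classic target of the aryl hydrocarbon receptor, separated the groups at 5.53 ± 0.40 (SD, n = 5) and 13.91 ± 0.04 (SD, n = 5). Albumin, the main hepatocyte transcript, lay at 15.11 in both groups.

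The shared Mt1 probe set was among the brightest on the arrays, at the 99.6th percentile of probe sets. Its level was 12.78, 13.17, 12.67, 13.19 and 13.04 in vehicle livers 1 to 5 and 13.79, 13.95, 13.61, 13.73 and 13.43 in dosed livers 1 to 5. All 5 dosed arrays lay above every vehicle array. The difference was 0.73 ± 0.12 on the log2 scale, a 1.66-fold higher level (limma adjusted p = 0.00341). Because the annotation gives Ttr for this probe set too, the probe set annotated to Ttr alone was read beside it, and its level went from 14.54 ± 0.04 (SD, n = 5) to 14.50 ± 0.03 (SD, n = 5) with dosing (limma adjusted p = 0.799). That probe set lay at the 99.97th percentile, near the top of the array. Mt1f was not read by itself, and the part of Ttr or Mt1f in the shared signal was not tested.

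The probe set annotated to Mt1 alone was dimmer, at the 69.0th percentile, and leaned the same way with overlap. Vehicle livers 1 to 5 had levels of 7.05, 7.41, 6.89, 7.73 and 6.75, and dosed livers 7.68, 8.13, 7.83, 7.62 and 7.61. Vehicle 4 lay above 3 of the 5 dosed arrays, whereas the other vehicle arrays lay below all of them. The difference was 0.61 ± 0.17, which is 1.53-fold (limma adjusted p = 0.0646), with a 95% interval from 0.24 to 0.98. It passed the threshold in 1 of the 10 fits with a single array left out, that without vehicle 4, at 0.75 (adjusted p = 0.0117). Over those 10 fits the difference ran from 0.51 to 0.75 and the limma adjusted p from 0.0117 to 0.155.

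Mt2A, the other main metallothionein of liver, showed the largest fold among the 12 probe sets and the widest spread. Its level was 10.31, 11.19, 10.25, 11.19 and 10.002 in vehicle livers 1 to 5 and 12.19, 12.15, 11.16, 11.99 and 11.25 in dosed livers 1 to 5. Dosed 3 fell among the vehicle values, while the other 4 dosed arrays lay above all of them. Vehicle arrays 2 and 4 stood about as high as dosed arrays 3 and 5. The difference was 1.16 ± 0.27 on the log2 scale, 2.24-fold (limma adjusted p = 0.0276). The call ended on leaving out any of 5 arrays (vehicle 1 and 3, dosed 1, 2 and 4), at adjusted p from 0.0722 to 0.0776 and differences from 1.05 to 1.10.

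Mt3 did not pass. It ranged from 6.86 to 7.37 in vehicle livers, with a median of 7.0002, and from 7.07 to 7.24 in dosed livers, with a median of 7.14. The difference was 0.08 ± 0.09, with a 95% interval from -0.11 to 0.27 (limma adjusted p = 0.751). Vehicle 5 had the highest value of all 10 arrays. Mt4, which neighbours Mt3 and is known from stratified epithelia, lay at 5.91 in both groups, with a difference of -0.0028 ± 0.11.

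**Figure D2:**
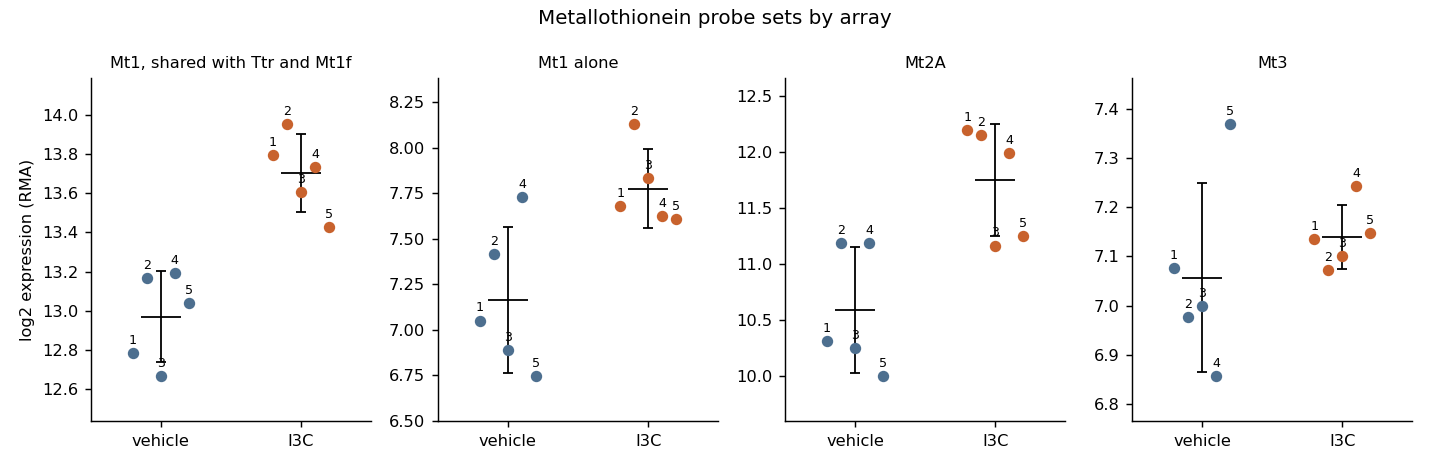
Log2 expression of the 4 metallothionein probe sets in each array (y axis, a separate scale in each panel), with vehicle and I3C groups on the x axis, array numbers above the points, and bars for the mean and SD of 5. The shared Mt1 panel shows no overlap between groups, and in the Mt2A panel dosed 3 lies among the vehicle values.

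Slc30a1, the zinc exporter of the plasma membrane and itself a known target of MTF1, was higher in every dosed array. Its level was 7.63, 8.01, 7.79, 7.62 and 8.04 in vehicle livers 1 to 5 and 8.20, 8.23, 8.31, 8.51 and 8.30 in dosed livers 1 to 5. The highest vehicle array, vehicle 5, lay just under the lowest dosed one. The difference was 0.49 ± 0.10 on the log2 scale, 1.41-fold (limma adjusted p = 0.0117), and the call held with any single array left out, at differences from 0.44 to 0.55.

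Slc39a4, the ZIP4 importer, was also higher in every dosed array. Vehicle livers 1 to 5 had levels of 8.55, 8.32, 8.50, 8.18 and 8.59, and dosed livers 8.94, 8.81, 8.67, 9.02 and 9.11. The groups did not overlap, with vehicle 5 highest among vehicle and dosed 3 lowest among dosed arrays. The difference was 0.48 ± 0.10, a 1.40-fold higher level (limma adjusted p = 0.0157), and it kept its call with any single array left out, at 0.42 to 0.54. Thus 3 of the 12 probe sets (shared Mt1, Slc30a1 and Slc39a4) had every dosed array above every vehicle array, where 3.44% of all probe sets did and 6.50% were apart in either direction.

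The other transporters did not pass. Slc30a10, the manganese exporter, ran from 9.10 to 9.91 in vehicle livers and from 9.12 to 9.63 in dosed livers, with vehicle 5 and dosed 1 low in their groups. Its difference was -0.20 ± 0.14, with a 95% interval from -0.51 to 0.11 (limma adjusted p = 0.583). Slc39a14, the ZIP14 importer of hepatocytes, has 2 probe sets that leaned in opposite directions. The brighter one lay from 11.03 to 11.20 in vehicle and from 10.90 to 11.06 in dosed livers, with 4 dosed arrays below every vehicle array, a difference of -0.13 ± 0.06 and an interval from -0.26 to 0.0057 (limma adjusted p = 0.340). The dimmer one differed by 0.05 ± 0.10, with an interval from -0.16 to 0.26 (limma adjusted p = 0.891).

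Mtf1, which drives the metallothionein genes when zinc is bound to it, was read by 3 probe sets, and none passed. The brightest lay from 8.55 to 8.76 in vehicle and from 8.47 to 8.57 in dosed livers, with only dosed 2 above the lowest vehicle array. It differed by -0.14 ± 0.06 (limma adjusted p = 0.263), the middle one by 0.14 ± 0.11 (0.646), and the dimmest by -0.16 ± 0.07 (0.266). The 95% interval of the brightest ran from -0.27 to -0.0099. These values are of the transcript, and MTF1 is known to act through zinc binding and entry into the nucleus.

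**Figure D3:**
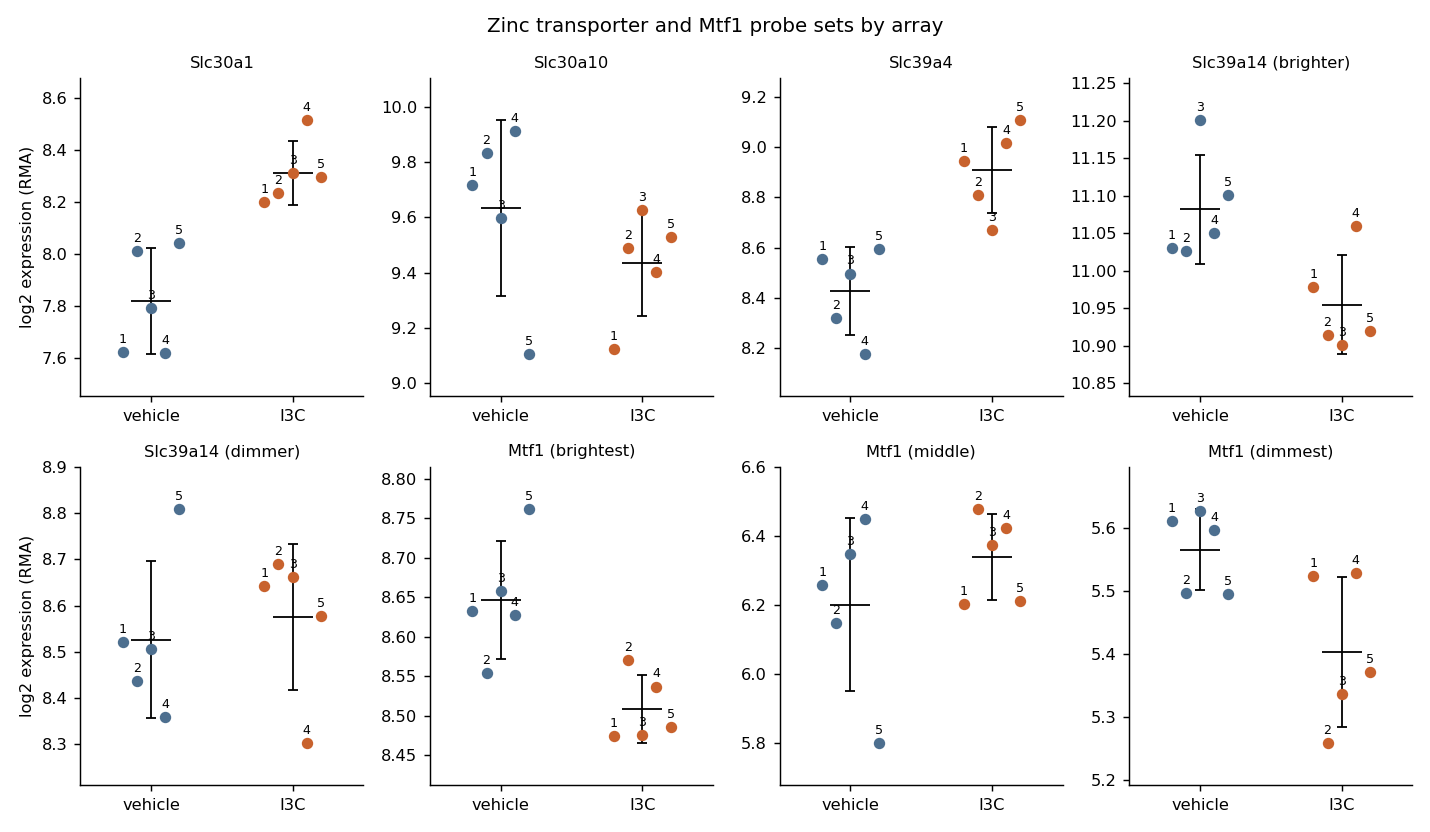
Log2 expression of the 5 transporter and 3 Mtf1 probe sets in each array (y axis, a separate scale in each panel, some of them narrow), with vehicle and I3C groups on the x axis, array numbers above the points, and bars for the mean and SD of 5. Slc30a1 and Slc39a4 show no overlap between groups, and the other panels do.

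With the GAPDH difference as a covariate in limma 0 of the 12 probe sets passed, and 1.14% of all probe sets did. Before adjustment 4 of the 12 were higher and 2 lower (p under 0.05), a cut to which the 1.14% does not apply. The sizes of 3 of the 4 called differences stayed near those without the covariate: 0.78 ± 0.20 for the shared Mt1 probe set (adjusted p = 0.104), 0.53 ± 0.17 for Slc30a1 (0.167) and 0.55 ± 0.17 for Slc39a4 (0.160). Mt2A went from 1.16 to 0.59 ± 0.42 (0.530), and the probe set of Mt1 alone from 0.61 to 0.39 ± 0.28 (0.534). Slc30a10 moved away from 0, from -0.20 to -0.59 ± 0.20 (0.195), and so did the dimmer Slc39a14 probe set, from 0.05 to 0.35 ± 0.12 (0.2002). When vehicle 5 was left out as well, a setting chosen after seeing the data, the shared Mt1 probe set lay at 0.73 ± 0.28, Mt1 alone at 0.85 ± 0.33, Mt2A at 0.71 ± 0.58, Slc30a1 at 0.13 ± 0.15 and Slc39a4 at 0.35 ± 0.22, again with 0 passing limma, where 0.254% of all probe sets did. Before adjustment 2 of the 12 were higher there and 0 lower (p under 0.05), a cut to which the 0.254% does not apply.

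With the beta-actin difference as a covariate 2.42% of all probe sets and 2 of the 12 passed, the pair of Mt1 probe sets, at 0.73 ± 0.16 (limma adjusted p = 0.0349) for the shared one and 0.86 ± 0.20 (adjusted p = 0.0440) for the one of Mt1 alone. Mt2A lay at 1.26 ± 0.36 (0.109), Slc30a1 at 0.30 ± 0.10 (0.159) and Slc39a4 at 0.34 ± 0.12 (0.189). The shared Mt1 probe set thus had nearly the same difference in all 3 fits over 10 arrays. Mt2A was smaller in one of the covariate fits, and Slc30a1 and Slc39a4 in the other.

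**Figure D4:**
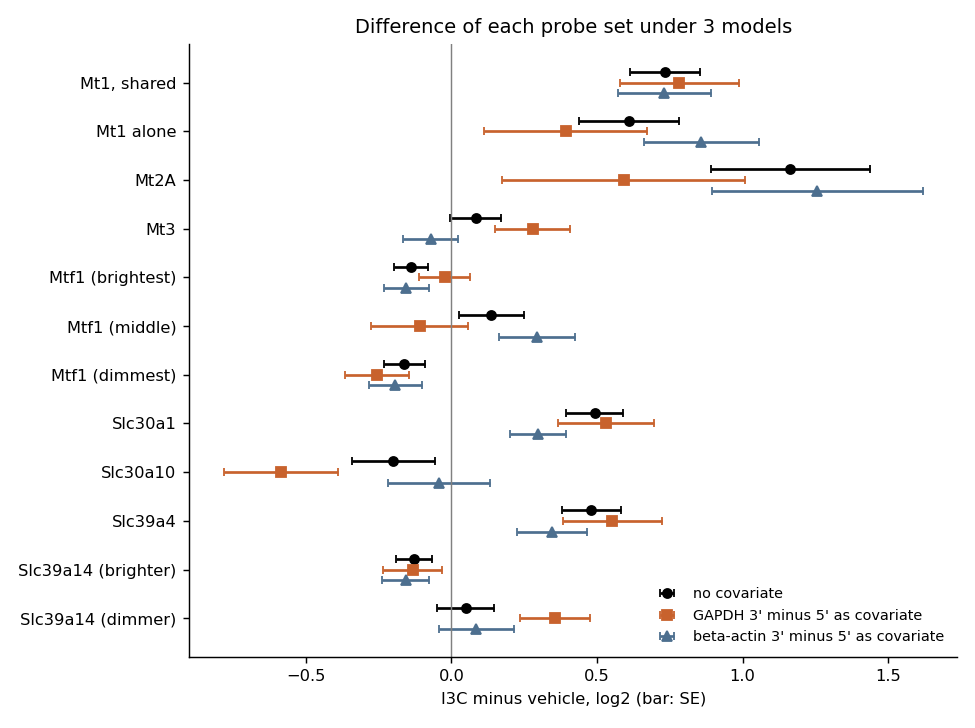
Difference between I3C and vehicle (x axis, log2, bars for the SE) of each of the 12 probe sets in 3 fits: without a covariate, with the GAPDH 3′ minus 5′ difference, and with that of beta-actin. The shared Mt1 probe set stays between 0.73 and 0.78, while Mt2A runs from 0.59 to 1.26.

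Apart from the dose, the members also varied from liver to liver within a group. After the group means were removed, Mt2A followed the shared Mt1 probe set over the 10 arrays with a Pearson r of 0.77 (permutation p = 0.0273, 0.191 after adjustment over 7 pairs) and a Spearman rho of 0.68 (permutation p = 0.0482, 0.337 adjusted). Vehicle 2, vehicle 4, dosed 1, dosed 2 and dosed 4 were above their group means in both, and vehicle 1, vehicle 3, dosed 3 and dosed 5 below in both. Vehicle 5 alone was above the mean in Mt1 and below it in Mt2A. Without the 2 arrays farthest from the median of Mt1, vehicle 3 and dosed 5, r was 0.74, and without vehicle 5 it was 0.92 (exact permutation p = 0.0462 after adjustment). With any other single array left out r ran from 0.71 to 0.78 (exact permutation p from 0.142 to 0.352 after adjustment).

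Of the 7 pairs 0 passed after adjustment, 1 at an unadjusted permutation p under 0.05. Slc39a4 leaned against Mt1, with r = -0.53 and rho = -0.58 (permutation p = 0.142 and 0.113, adjusted 0.498 and 0.394), and -0.37 without the same 2 arrays. The remaining 5 members had r between -0.27 and 0.11. The probe set of Mt1 alone followed the shared one with r = 0.66 and rho = 0.73 (permutation p = 0.0665 and 0.0350), and r was 0.60 without those arrays. Set against that probe set in place of the shared one, a choice made after seeing the data, Mt2A had r = 0.71 (adjusted permutation p = 0.0851) and Slc39a4 r = -0.83 (adjusted permutation p = 0.0414). All pairs share the same 10 libraries.

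**Figure D5:**
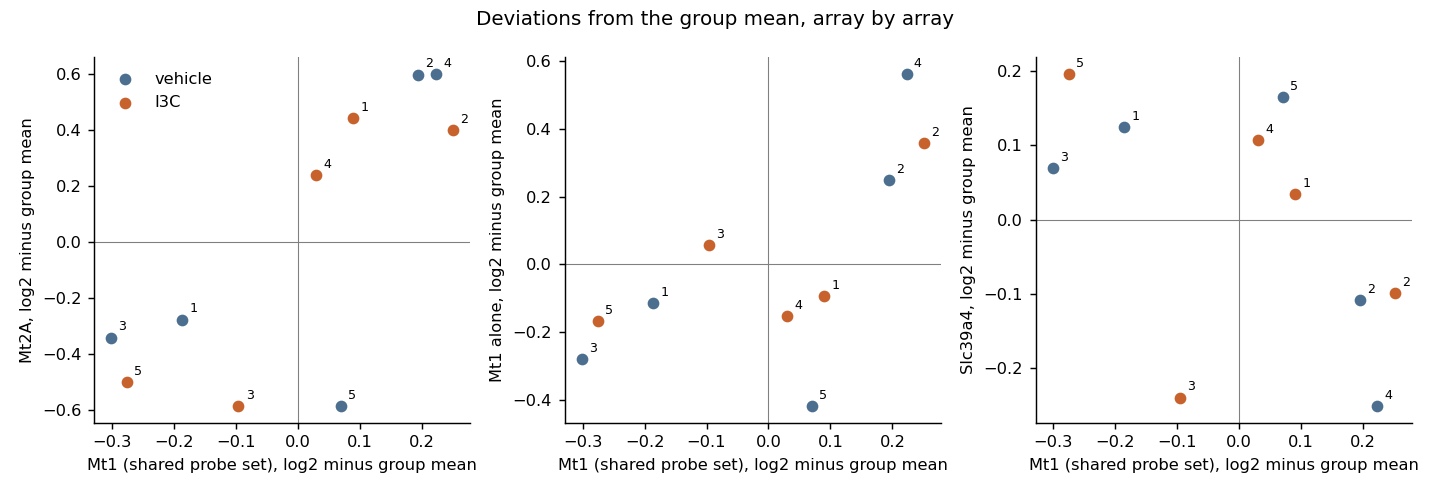
Deviation of each array from its group mean (log2) for the shared Mt1 probe set (x axis) against Mt2A, Mt1 alone and Slc39a4 (y axes), with vehicle and I3C arrays in 2 colours and array numbers beside the points. Over the 10 arrays r was 0.77 for Mt2A, 0.66 for Mt1 alone and -0.53 for Slc39a4.

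Ranked by Pearson r of these group-centred values with the shared Mt1 probe set over 10 arrays, the 5 most alike of 14209 other genes were Stap2 (0.94), Siae (0.91), Mllt6 (0.89), Odf2 (0.89) and Col1a2 (0.88). Stap2 encodes an adaptor protein of cytokine signalling, and Siae an esterase of sialic acids. The ranking is a description of these libraries, and with the probe set of Mt1 alone the same genes had r between 0.44 and 0.68. Stap2 differed by -0.12 ± 0.09 between dosed and vehicle livers and Siae by -0.24 ± 0.09, and none of the 5 passed limma in that comparison (adjusted p from 0.212 to 0.891).

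The other transporters of zinc showed few calls. Each other gene was read through its brightest probe set, and 6.43% of all 14217 genes passed in either direction (3.32% higher, 3.11% lower), with a median difference of -0.0039. Of 17 further members of the SLC30 and SLC39 families, with differences from -0.28 to 0.37, 1 rose and 0 fell. In the SLC30 family, which moves zinc out of the cytosol, Slc30a6 rose by 0.37 ± 0.09 (limma adjusted p = 0.0372), from 8.25 ± 0.20 to 8.62 ± 0.07 (SD, n = 5). Slc30a5, with which it is known to form a pair in the early secretory pathway, differed by 0.26 ± 0.07 (adjusted p = 0.0524). The median over the 7 measured exporters was 0.12. Slc30a6 lost its call without vehicle 3 or any one of the 5 dosed arrays (adjusted p up to 0.0981), and with the GAPDH covariate it lay at 0.15 ± 0.13.

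Of 10 further SLC39 importers 0 passed limma, 4 of them at an unadjusted p under 0.05, and their median difference was 0.04. Slc39a1, the brightest but one, differed by -0.28 ± 0.13 (limma adjusted p = 0.296) and Slc39a8, the brightest, by -0.17 ± 0.10 (adjusted p = 0.450). Slc39a1 passed with the beta-actin covariate, at -0.54 (adjusted p = 0.0308).

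Of 13 genes of copper handling 1 rose and 1 fell, with a median of -0.04. Ccs, the copper chaperone of superoxide dismutase, rose by 0.34 ± 0.08 (limma adjusted p = 0.0366), and Steap3, a metalloreductase known for iron uptake, fell by 0.58 ± 0.09 (adjusted p = 0.00253). Ccs lost its call without vehicle 2, 3 or 4 or dosed 1, 2, 3 or 5 (adjusted p up to 0.0961) and went to 0.16 ± 0.13 with the GAPDH covariate. Steap3 lay at -0.60 ± 0.15 there (adjusted p = 0.101).

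Of 8 genes of iron and manganese transport 0 rose and 1 fell, with a median of -0.10. Slc40a1, the iron exporter ferroportin, fell by 0.52 ± 0.10 (limma adjusted p = 0.00923), and by 0.83 ± 0.13 with the GAPDH covariate (adjusted p = 0.0110). The call ended with the beta-actin covariate, at -0.40 (adjusted p = 0.130). Hamp, the hormone hepcidin that removes ferroportin from the membrane, lay at 13.06 ± 0.04 (SD, n = 5) without I3C and at 13.07 ± 0.25 (SD, n = 5) with it. Of 7 other reported targets of MTF1, Slc40a1 and Hamp among them, 1 rose and 1 fell. The risen one was Gclc, the catalytic subunit that makes glutathione's precursor and a known NRF2 target as well, at 0.53 ± 0.11 (adjusted p = 0.0167), and at 0.22 ± 0.15 with the GAPDH covariate.

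Of 21 zinc enzymes and zinc-binding plasma proteins 0 rose and 1 fell, with a median of -0.08. Alad, a zinc enzyme of heme synthesis, fell by 0.33 ± 0.08 (limma adjusted p = 0.0225), a call that ended on leaving out vehicle 1 or 3 or dosed 1, 2 or 4 (up to 0.0636) and with the GAPDH covariate (-0.38 ± 0.13, adjusted p = 0.183).

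Genes that heavy metals and damaged proteins are known to induce stood out among the lists by count. Of 15 measured, 6 rose and 0 fell, all 15 differences were positive and their median was 0.49. Srxn1, which repairs peroxiredoxins, rose by 1.11 ± 0.20 (limma adjusted p = 0.00561), glutathione reductase Gsr by 0.89 ± 0.08 (4.52e-05), the cystine importer Slc7a11 by 0.74 ± 0.12 (0.00259), and the stress transcription factor Atf3 by 0.55 ± 0.11 (0.0116). Srxn1, Gsr and Slc7a11 are also known targets of NRF2, so this list does not stand for metals alone. Txnrd1 (0.50, limma adjusted p = 0.00134) and Hsph1 (0.49, 0.0209) rose too. Among those that did not pass were Hspa1a (0.26, limma adjusted p = 0.495), Hmox1 (0.12, 0.533), Dnajb1 (0.08, 0.792) and Hspb1 (0.07, 0.941). With the GAPDH covariate 2 of the 15 rose, Gsr at 0.85 ± 0.13 and Slc7a11 at 1.07 ± 0.15. Srxn1 lay at 1.15 ± 0.33 (adjusted p = 0.142) and Atf3 at 0.50 ± 0.18 (0.235) there, near their sizes without it. The shared direction did not hold with the covariates: Egr1, Hspb1 and Gclm were at -0.34, -0.29 and -0.02 with GAPDH, and Hsf1 and Fos at -0.18 and -0.07 with beta-actin, none of them past the threshold. All genes of this list but Srxn1, Gsr, Slc7a11 and Atf3 are named after their values were seen.

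Signals other than metal that are known to raise metallothionein showed a few calls each. Of 14 genes of the glucocorticoid response 2 rose, Igfbp1 and Tat, and 0 fell, with a median of -0.12. Before adjustment 5 of the 14 were at a limma p under 0.05. Igfbp1 and Tat were higher, and Nr3c1 (-0.42), Tsc22d3 (-0.24) and Fkbp4 (-0.22), named after their values were seen, were lower. In that list Tat lay at 0.93 ± 0.16 (limma adjusted p = 0.00540), and Igfbp1, at 1.20 ± 0.30 (adjusted p = 0.0409), lost its call when any of 7 arrays was left out (vehicle 3, 4 or 5, or dosed 2, 3, 4 or 5; adjusted p up to 0.106). Igfbp1 lay at 0.15 ± 0.35 with the GAPDH covariate and Tat at 0.53 ± 0.24. Of 23 genes of interleukin 6 signalling and the acute phase 3 rose and 0 fell, with a median of -0.0087. These were Cebpb, a transcription factor of the acute phase, at 0.69 ± 0.08 (adjusted p = 0.000489), Orm1, an acute phase glycoprotein, at 0.56 ± 0.11 (0.0103), and Crp at 0.35 ± 0.07 (0.00793). With the GAPDH covariate 0 glucocorticoid genes passed limma and 1 acute phase gene did, Cebpb at 0.71 ± 0.14. Orm1 lay at 0.65 ± 0.18 (adjusted p = 0.132) and Crp at 0.43 ± 0.11 (0.0892) in that fit, both larger than without the covariate, and at 0.38 (0.147) and 0.27 (0.119) with the beta-actin covariate.

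Over all 9 lists 17 of 113 measured genes passed, which is 15.0%, 14 of them higher and 3 lower. Of all genes 6.43% passed (3.32% higher, 3.11% lower). The list of heavy metal and damaged protein genes held 6 of the 14 higher calls. The lists were chosen with earlier results of these data known. The median over the 113 was 0.02. With the GAPDH covariate 5 passed, where 1.60% of all genes did: Gsr, Slc7a11 and Cebpb higher, and Slc40a1 and Xiap lower. Xiap, an apoptosis inhibitor also tied to copper, is named after its values were seen, and lay at -1.14 ± 0.24 (adjusted p = 0.0457) there against -0.06 ± 0.27 without the covariate.

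Markers of other cells were read beside these values. Of 10 Kupffer cell and macrophage markers 2 fell, Cd5l and C1qa, and 9 of the 10 differed at an unadjusted p under 0.05, all lower but Lyz2, which was higher. The share of all genes at that unadjusted cut was not taken. With the GAPDH covariate 0 of the 10 passed limma. With that of beta-actin C1qa kept its call (adjusted p = 0.0214) and Cd5l did not (0.129). The median difference of the 10 was -0.34. Their mean level ran from 9.24 to 9.56 in vehicle and from 8.85 to 9.24 in dosed livers, and the part of macrophages in the members' differences was not tested. Of 13 pancreatic acinar markers 1 fell, Cpa1, and their mean level ran from 5.57 to 5.78 and from 5.43 to 5.603. Of 8 intestinal epithelial markers 1 rose, Fabp2, and the median difference of the 8 was 0.05, with 5 positive. Fabp2 lay at 0.61 ± 0.15, at 1.03 ± 0.21 with the GAPDH covariate, and at 0.63 with that of beta-actin (limma adjusted p = 0.146). The mean level of the 8 ran from 5.37 to 5.79 in vehicle and from 5.57 to 5.68 in dosed livers. Of 9 hepatocyte markers 1 rose, Apoa1, and their mean level lay from 14.00 to 14.06 and from 13.96 to 14.05. Of 9 endothelial markers 0 passed limma (1 at an unadjusted p under 0.05), of 11 stellate cell and fibroblast markers 1 rose and 1 fell, of 8 cholangiocyte and of 9 kidney tubule markers 1 each fell, and of 10 lymphocyte markers 0 passed (2 at an unadjusted p under 0.05).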

How the data were processed

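Values are log2 expression as deposited, computed by the authors with RMA per the submitters' processing notes, which name no version. Per the labels' protocols, biotin-labelled cRNA was made from 5 ug of RNA of each liver. RMA aligns array distributions and tends to compress large folds. Array medians lay from 6.21 to 6.29, and 57 control probe sets stayed out of the tests.

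Gene names came from the platform annotation, with symbols updated by Entrez ID through RefSeq (GRCr8). limma 3.58.1 (R 4.3.3) fitted both groups over 31042 probe sets, without an intensity trend, two-sided, with Benjamini-Hochberg adjustment and a threshold of 0.05; the fit was tested on simulated data. Correlations of group-centred values used permutation within groups (100000 resamples, exact with fewer than 10 arrays). Of 221 list symbols 198 were measured. Named are all members, the 5 most alike genes, Cyp1a1, Alb and, per pathway list, up to 4 calls by size or, with fewer than 2 calls, those and the brightest others up to 2. Members, lists and tests were chosen with earlier results of these data known. Mt4, Ttr and the marker genes were named after their values were seen. The number of arrays limits the precision.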

Additional observations from a re-analysis of the deposited data

Results flagged for a closer look

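In the groups of 5, an array was singled out when its distance to the nearest other array exceeded 0.71 of the range of its group, Dixon's 95% critical value. Chance alone singles out about 1 in 20 groups, and 4 of 78 groups were singled out here. None was a group of a member probe set. Slc40a1 was lowest in vehicle 5 at 10.83, with the next array at 11.26 (ratio 0.799). Gclc was also lowest in vehicle 5, at 9.51 against 9.92 (ratio 0.787). Srxn1 was lowest in vehicle 3, at 7.68 against 7.98 (ratio 0.893). Col1a2 was lowest in dosed 5, at 6.53 against 7.10 (ratio 0.727).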

How the results depend on the processing

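The 4 calls among the 12 probe sets were 4 with a trend in the variance model, with the replicate block or with centred arrays, and 5 with array weights, renewed quantile normalization or a filter on dim probe sets, the fifth being the probe set of Mt1 alone; the filter left the dimmest Mtf1 probe set without a value. They were 1 without moderation of the variance (which leaves differences as they are), 2 with the beta-actin covariate, 0 with the GAPDH covariate with or without vehicle 5, and 3 to 5 with single arrays left out, and all were higher. Shares of all probe sets were taken only for the covariate fits and the fit without moderation. The other counts, the fifth call among them, thus have no background here. Of 17 calls among list genes (14 higher, 3 lower), the number was 8 without moderation (6 higher), 5 with the GAPDH covariate (3 higher), 7 with the beta-actin covariate (5 higher) and 0 with the GAPDH covariate without vehicle 5; lower calls were 6 with renewed quantile normalization and 7 with array weights. In both directions together list calls were 22 with array weights, 21 with renewed quantile normalization and 16 with the filter on dim probe sets. With single arrays left out list calls ran from 12 to 19, the higher ones from 10 to 14 and the lower ones from 2 to 6, with 6 without vehicle 5. Pairs past the threshold within groups ran from 0 to 1, and were 1 for the probe set of Mt1 alone.

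Some differences changed sign, none of them past the threshold there: Mt3 to -0.071 with beta-actin, the middle Mtf1 probe set to -0.11 with GAPDH, Slc39a8 to 0.043 and Igfbp1 to -0.20 with GAPDH and without vehicle 5, and Hamp to -0.033 with array weights. With single arrays left out Hamp ran from -0.096 to 0.061 and Alb from -0.00081 to 0.0062. Causes were not tested. Same-numbered arrays correlated between -0.28 and 0.22 across groups. Vehicle arrays 2 and 3 correlated best with the dosed array of their own number, and vehicle arrays 1, 4 and 5 did not. With 5 arrays per group these correlations cannot decide whether the numbers pair samples. With the replicate block list calls were 13; Slc30a6 (0.37, adjusted p = 0.0657), Ccs, Alad and Igfbp1 lost their calls, and Mt2A lay at 1.16 (limma adjusted p = 0.00477).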
